A study of Homo sapiens with 9 samples.

Results

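The response to MS-275 alone was followed in the established melanoma line WM983B, of human origin, on 6 of the 9 arrays of the series and in every one of the 14884 genes that could be given a symbol. The arrays were picked by their titles. 3 came from cells kept for 24 h in 2.5 µM MS-275 and 3 from cells kept for 24 h in DMSO, the vehicle of the stock. The other 3 came from cells given 2.5 µM corin2 for 24 h, taken here to be corin, which joins the HDAC-binding benzamide part of MS-275 to a group directed at the demethylase LSD1. These 3 arrays are used only where they show how the response to MS-275 differs from that to corin at the same dose and time. The labels name no allele and no further agent in any group. The series' design text speaks of biological triplicates, and the paper's methods call the array data representative of 3 independent experiments. Neither states outright whether each array had its own culture. The p-values rest on the spread among these arrays, and that spread may be technical.

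MS-275, also called entinostat, is a benzamide inhibitor of the class I histone deacetylases (HDACs). These enzymes sit in corepressor complexes such as CoREST, Sin3, NuRD and NCoR and take acetyl groups off histone tails, which is associated with silent chromatin. Inhibitors of this class are known to raise genes that are silent in a tissue and to slow the cell cycle at the entry into S phase.

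The measurement was the log2 signal of a probe on a whole-transcript array, so that a difference of 1 is a fold of 2. Each signal is relative to the other transcripts on its array, so that a cell making more or less RNA in all would go unseen. The signals of genes correlated at r = 0.994 between arrays of the same treatment and at 0.969 to 0.97 between MS-275 and vehicle arrays, across genes that are not independent replicates. The median SD of a gene over 3 arrays was 0.103 log2 units with MS-275 and 0.104 with vehicle. Of the melanoma markers MITF, SOX10, TYR, TYRP1, PMEL and MLANA, each had a log2 signal above 6.78, the lower bound of the brightest of 4 equal bins of genes, on all 6 arrays. DCT was not analysed here. Markers of other cell types gave mean signals of 4.54 to 4.59 with MS-275 and 4.38 to 4.42 with vehicle for 24 keratinocyte and epithelial genes, and of 5.29 to 5.35 with MS-275 and 5.13 to 5.25 with vehicle for 10 immune genes. For 7 fibroblast genes they were 5.17 to 5.25 with MS-275 and 5.04 to 5.09 with vehicle, and for 9 endothelial genes 4.94 to 4.96 with MS-275 and 4.65 to 4.75 with vehicle. The part of such genes in the results was not tested. The median probe of the arrays had a signal of 4.07, and 13 of the epithelial, 2 of the immune, 3 of the fibroblast and 2 of the endothelial genes lay under it with vehicle.

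MS-275 raised many genes strongly and lowered few. A gene was called at a fold of at least 2 and a Benjamini-Hochberg adjusted p under 0.05 from limma, over all 14884 genes. By this rule 451 genes were higher with MS-275 than with vehicle, which is 3.03% of those tested, and 58 were lower, which is 0.39%. An unadjusted p, or the one-way model of the methods, gave the same counts. Neither changes a fold, so these counts could move only through the p-value. The imbalance lay in the size of the changes and not in their number. With no limit on the fold, 2108 genes passed the test as higher (14.2%) and 2293 as lower (15.4%). At a fold of 1.5 the counts were 1073 higher and 610 lower, at a fold of 3 they were 147 and 1, and at a fold of 4 they were 69 and 0. Beyond 8-fold there were 15 raised genes and beyond 16-fold 4. The median change over all genes was -0.03. The split depended on the scaling of the arrays: raised genes made up 88.6% of the 2-fold calls and 47.9% of the calls at any fold as deposited, and 73.4% and 30.3% once each array was centred on its median gene, which moved every change down by about 0.105 log2 units.

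**Figure D1:**
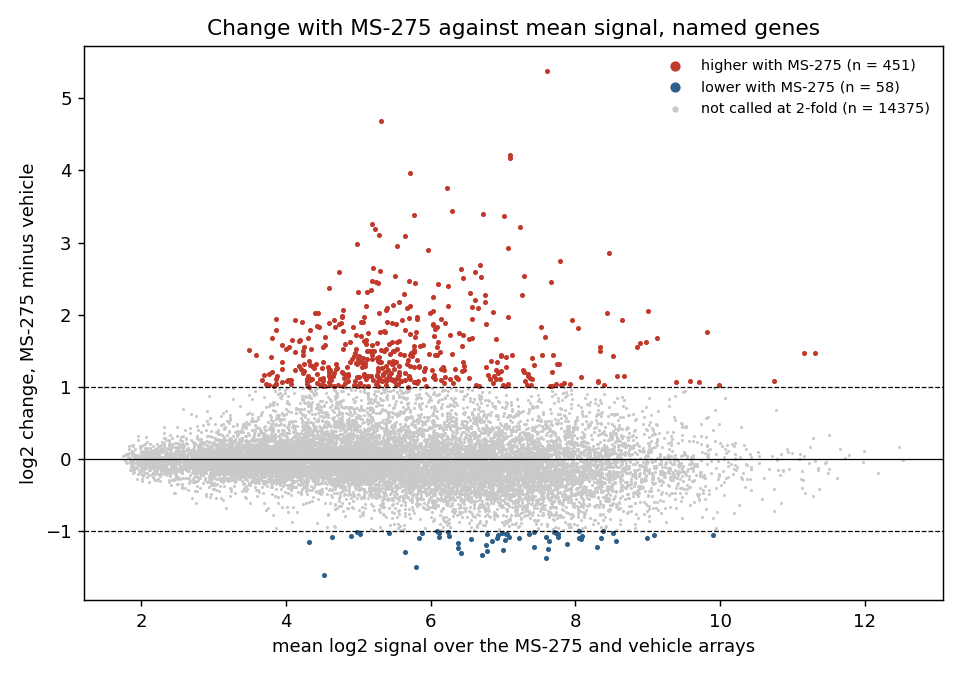
Log2 change of each of 14884 named genes (vertical axis, MS-275 minus vehicle) against its mean log2 signal over the 6 arrays (horizontal axis). Red points are the 451 genes called higher with MS-275, blue points the 58 called lower and grey points the rest, and dashed lines mark a 2-fold change. The red points reach 5.38 and begin at low signals, while the blue points end at -1.61 and lie mostly at middle and high signals.

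The raised genes were dimmer with vehicle than the lowered ones. Their median signal was 6.22 with MS-275 and 4.73 with vehicle, and 118 of the 451 lay under the median probe with vehicle while 0 did so with MS-275. For genes as dim as this the fold is uncertain, since a signal near the background of the array cannot fall further. The lowered genes had a median signal of 6.47 with MS-275 and 7.57 with vehicle, with 0 under the median probe in vehicle. Split by mean signal into 4 bins of 3721 genes, the dimmest bin held 8 raised and 1 lowered gene, the next 123 and 9, the next 202 and 31, and the brightest 118 and 17. At any fold, lowered genes outnumbered raised ones in the brightest bin, with 28.2% of its genes lower and 17.7% higher, while in the next to dimmest bin 7.98% were lower and 15.9% higher.

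STC1, CD24, PARM1 and SYN1 showed the largest rises, each of more than 16-fold. STC1 encodes stanniocalcin-1, a secreted glycoprotein. Its log2 signals were 10.37, 10.22 and 10.32 with MS-275, against 4.92, 4.73 and 5.13 with vehicle. This is a 41.6-fold rise (log2 change 5.38, SE 0.10, adjusted p = 9.28e-11). CD24, a small glycosylated protein anchored at the cell surface, had 7.61, 7.64 and 7.74 with MS-275, against 2.47, 3.40 and 3.06 with vehicle. The vehicle arrays were the more scattered here, and they lay among the dimmest signals of the array, so that the 25.7-fold change (log2 4.68, SE 0.18) has an uncertain size. PARM1, a mucin-like membrane protein, had 9.18, 9.25 and 9.16 with MS-275, against 5.14, 4.96 and 4.87 with vehicle. No array of one treatment came near those of the other for any of these genes.

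SYN1 encodes synapsin-1, a phosphoprotein of synaptic vesicles, and is silent in most cells outside the nervous system. Its log2 signals were 9.20, 9.17 and 9.19 with MS-275, against 4.99, 5.03 and 5.01 with vehicle. Both groups were tight, with SDs of 0.02 each, and the 18-fold difference had the smallest p of all genes tested (log2 4.17, 95% interval 4.01 to 4.33, adjusted p = 7.81e-11). With corin the SYN1 signals were 9.18, 9.25 and 9.15, and the difference from MS-275 was 0.01 (95% interval -0.15 to 0.17). VAMP7, a vesicle fusion protein that is made in most cells, had signals of 9.11 ± 0.01 with MS-275 and 8.98 ± 0.03 with vehicle (SD, n = 3 each), a log2 change of 0.13 that did not pass the test (adjusted p = 0.225).

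The 250 bases of RefSeq's farthest upstream SYN1 promoter window are shown because the neuron-restrictive silencer element (RE1) in this promoter is a known binding site of the repressor REST, which recruits CoREST and HDACs. In WM983B cells the paper's ChIP-PCR placed HDAC1 but not LSD1 at the SYN1 promoter. The paper used SYN1 as a control gene that corin did not induce selectively. Whether REST or CoREST has a part in the rise of SYN1 was not tested. The stretch lies at chrX:47619858-47620107 on the minus strand of GRCh38.p14 and runs 5′ to 3′ up to the start of transcription. Capitals mark the letters of one arm of RE1 (GGTGCTGA on the other strand) and of a cyclic AMP response element (CRE, TGACGTCA).
SYN1: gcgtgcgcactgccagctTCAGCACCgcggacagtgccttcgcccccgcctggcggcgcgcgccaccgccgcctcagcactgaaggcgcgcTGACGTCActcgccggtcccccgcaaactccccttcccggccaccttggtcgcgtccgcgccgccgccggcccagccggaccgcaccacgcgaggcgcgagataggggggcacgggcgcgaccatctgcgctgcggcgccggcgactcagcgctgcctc
SYT4, which encodes a synaptotagmin of secretory vesicles, carried the same arm of RE1, at chr18:43277491-43277740 on the minus strand.
SYT4: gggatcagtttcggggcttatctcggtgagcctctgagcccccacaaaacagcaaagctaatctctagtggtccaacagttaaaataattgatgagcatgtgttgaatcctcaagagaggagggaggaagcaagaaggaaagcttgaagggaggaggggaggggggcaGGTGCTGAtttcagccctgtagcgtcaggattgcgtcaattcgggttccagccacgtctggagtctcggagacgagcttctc
Its log2 signals were 4.28, 4.47 and 4.41 with MS-275, against 3.18, 3.44 and 3.43 with vehicle, a 2.05-fold rise from the dim end of the range (adjusted p = 6.19e-05). Of all 10749 tested genes with a window 142 held these letters (1.32%), and of 50 lowered genes with one 1 did, OMG (2%). Among the 342 raised genes with a window 5 held them (1.46%). Besides SYN1 and SYT4 these were CREB3L3 (log2 change 2.63), a transcription factor of the endoplasmic reticulum membrane, and SV2B (1.46) and SYT3 (1.27), both of synaptic vesicles. The 4 raised genes other than SYN1 were picked after their values were seen. A match of letters is a description and not a binding site.

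The other genes with the largest rises were of mixed function. ANKRD1, an ankyrin repeat protein of muscle, had signals of 7.57, 7.86 and 7.67 with MS-275, against 3.42, 3.70 and 4.07 with vehicle, and CAPN6, a calpain without protease activity, had 8.06, 8.14 and 8.12 with MS-275, against 4.43, 4.48 and 4.14 with vehicle. SSTR2 is a somatostatin receptor, and its signals were 8.12, 7.90 and 8.02 with MS-275, against 4.79, 4.25 and 4.69 with vehicle. Their rises were 15.6-fold, 13.5-fold and 10.8-fold, and in all 3 the vehicle arrays were the more scattered. EEF1A2, a translation elongation factor of brain and muscle, rose 10.5-fold (log2 3.39, SE 0.09). DLX3, a homeobox factor of epidermis, rose 10.4-fold, and SEPTIN3, a neuronal septin, rose 9.29-fold. TMEM47, a membrane protein of cell junctions, COLEC12, a scavenger receptor, CDS1, an enzyme of phospholipid synthesis, MYCT1 and PAQR5, a membrane progestin receptor, rose between 8.54-fold and 10.3-fold. The 15 largest rises had SEs between 0.07 and 0.18 log2 units.

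**Figure D2:**
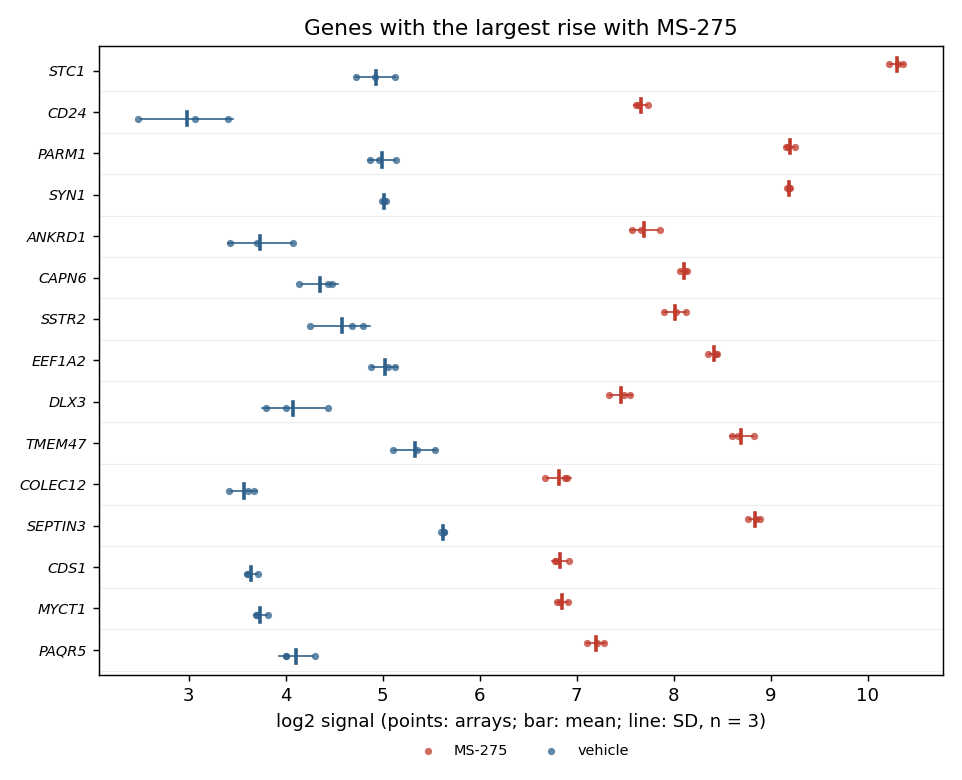
Log2 signals (horizontal axis) of the 15 named genes with the largest rise, 1 row a gene, with MS-275 in red above vehicle in blue. Points are single arrays, vertical bars the mean of 3 arrays and horizontal lines the SD. In every row the 3 MS-275 arrays lie to the right of the 3 vehicle arrays, which the choice of the genes fixes. The distance is 3.09 log2 units on average for PAQR5 and 5.38 for STC1.

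Many genes of neurons and neuroendocrine cells rose. Of 33 measured members of this list 13 were higher at 2-fold, where 3.03% of all genes were, and 0 lower, where 0.39% were, and 24 were higher and 1 lower at any fold, with a median change of 0.56 against -0.03 over all genes. At any fold 14.2% of all genes were higher and 15.4% lower, and the counts of the lists that follow stand beside these same shares. Besides SYN1, the largest changes were those of SCG2, KIF5C and MAPT. SCG2, a secretogranin of dense-core vesicles, had 6.47, 6.29 and 6.27 with MS-275, against 4.04, 3.97 and 3.998 with vehicle. KIF5C, a kinesin of axonal transport, had 6.81, 6.83 and 6.67 with MS-275, against 4.52, 4.47 and 4.45 with vehicle. The signals of MAPT, which encodes the microtubule protein tau, were 7.87, 7.94 and 7.84 with MS-275, against 5.57, 5.77 and 5.48 with vehicle. In all 3 genes the SD of the MS-275 arrays was 0.11 log2 units or less, and the vehicle arrays lay clear of them. SYT11, another synaptotagmin, rose 3.53-fold. A list of 20 measured genes that HDAC inhibitors are known to raise gave 9 higher and 0 lower at 2-fold and a median of 0.84. Its largest changes were in DHRS2, a mitochondrial reductase (6.31 ± 0.10 with MS-275 and 4.28 ± 0.07 with vehicle), CCN2, a matricellular growth factor (9.60 ± 0.13 with MS-275 and 7.67 ± 0.16 with vehicle), CLU, the chaperone clusterin (6.96 ± 0.21 with MS-275 and 5.09 ± 0.03 with vehicle), and SYT11.

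Of 23 measured genes of the TGF-beta and BMP pathway 3 were higher at 2-fold and 0 lower, against 3.03% and 0.39% of all genes, and all 3 were ligands. At any fold 10 were higher and 1 lower. BMP6, BMP2 and BMP4 are bone morphogenetic proteins, which signal through SMAD proteins. BMP6 had 7.50, 7.33 and 7.41 with MS-275, against 4.53, 4.65 and 4.36 with vehicle. BMP2 had 6.76, 6.88 and 6.70 with MS-275, against 3.97, 4.43 and 4.32 with vehicle, and BMP4 had 6.44, 6.58 and 6.26 with MS-275, against 3.77, 3.81 and 4.29 with vehicle. BMP7, of the same family, rose 1.86-fold and thus under the 2-fold threshold. The SMAD factors downstream showed smaller changes, since of SMAD1 to SMAD7 and SMAD9 only SMAD6 passed the test, at 0.37, and the others lay between -0.19 for SMAD1 and 0.32 for SMAD7. The SMAD genes were named after their values were seen.

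Among 29 measured cytokines and chemokines 6 were higher at 2-fold and 0 lower, against 3.03% and 0.39% of all genes. IL11, a cytokine of the interleukin-6 family, had 8.52, 8.56 and 8.50 with MS-275, against 5.84, 5.36 and 5.62 with vehicle. CXCL8, the neutrophil chemokine interleukin-8, had 9.98, 9.87 and 9.83 with MS-275, against 7.16, 6.77 and 7.18 with vehicle. CXCL14, a chemokine of epithelia, rose 4.95-fold, and PTGS2, which encodes cyclooxygenase-2, rose 2.78-fold. At any fold 10 members were higher and 1 lower, against 14.2% and 15.4% of all genes. LIFR, the receptor of leukemia inhibitory factor, was higher by 2.65 and was named after its value was seen. LIF itself, the ligand of this receptor and also picked afterwards, fell by 0.85 (adjusted p = 1.31e-05).

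Receptor tyrosine kinases and their ligands gave 9 higher and 0 lower of 47 measured at 2-fold, and 28 higher and 3 lower at any fold (median 0.38). Over all genes the shares were 3.03% and 0.39% at 2-fold and 14.2% and 15.4% at any fold. KDR, the main receptor of vascular endothelial growth factor, had 6.87, 7.01 and 6.95 with MS-275, against 4.49, 4.56 and 4.37 with vehicle. EFNB2, a membrane-bound ligand of Eph receptors, had 8.33, 8.48 and 8.38 with MS-275, against 5.91, 6.29 and 6.17 with vehicle. MERTK, a receptor of the TAM family, rose 3.91-fold and ERBB4, a neuregulin receptor, 3.65-fold. EGFR, the epidermal growth factor receptor, rose 3.39-fold, with 6.17 ± 0.02 with MS-275 and 4.41 ± 0.21 with vehicle (SD). The family did not move one way, since ERBB3, a neuregulin receptor of the melanocyte lineage, was 1.82-fold lower (log2 -0.86, adjusted p = 5.08e-05). Of 29 measured WNT pathway genes 7 were higher and 0 lower. They included the secreted inhibitors SFRP1 (1.06), SFRP2 (1.20) and DKK1 (1.004) and the receptors FZD4 (1.14) and LGR4 (1.28). With the arrays centred on their medians 3 of the 29 were called at 2-fold.

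Adhesion genes gave 8 higher and 0 lower of 27 measured at 2-fold, or 5 after centring. ALCAM, an adhesion molecule of the immunoglobulin superfamily, had 7.69 ± 0.15 with MS-275 and 6.25 ± 0.20 with vehicle, and SDC2, a heparan sulfate proteoglycan, had 6.36 ± 0.14 with MS-275 and 5.07 ± 0.05 with vehicle. PKP2 and DSP, both of desmosomes, rose 5.43-fold and 5.39-fold, and both were named after their values were seen. Early response transcription factors gave 5 higher and 0 lower of 20, or 3 after centring. EGR1, a zinc finger factor induced by growth signals, had 9.69, 9.64 and 9.55 with MS-275, against 7.97, 8.13 and 8.10 with vehicle, and FOS, a subunit of AP-1, had 7.66, 7.78 and 7.64 with MS-275, against 6.27, 6.12 and 6.37 with vehicle. FOSL1, a FOS relative, went the other way, with a log2 change of -0.87 (adjusted p = 0.000543). Among 10 measured genes of antigen presentation and immune recognition MICB and ULBP3, which NKG2D, an activating receptor of natural killer cells, binds, and CD274, which encodes PD-L1, were higher by 1.09, 1.03 and 1.03, and after centring 0 of the 10 were called at 2-fold.

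**Figure D3:**
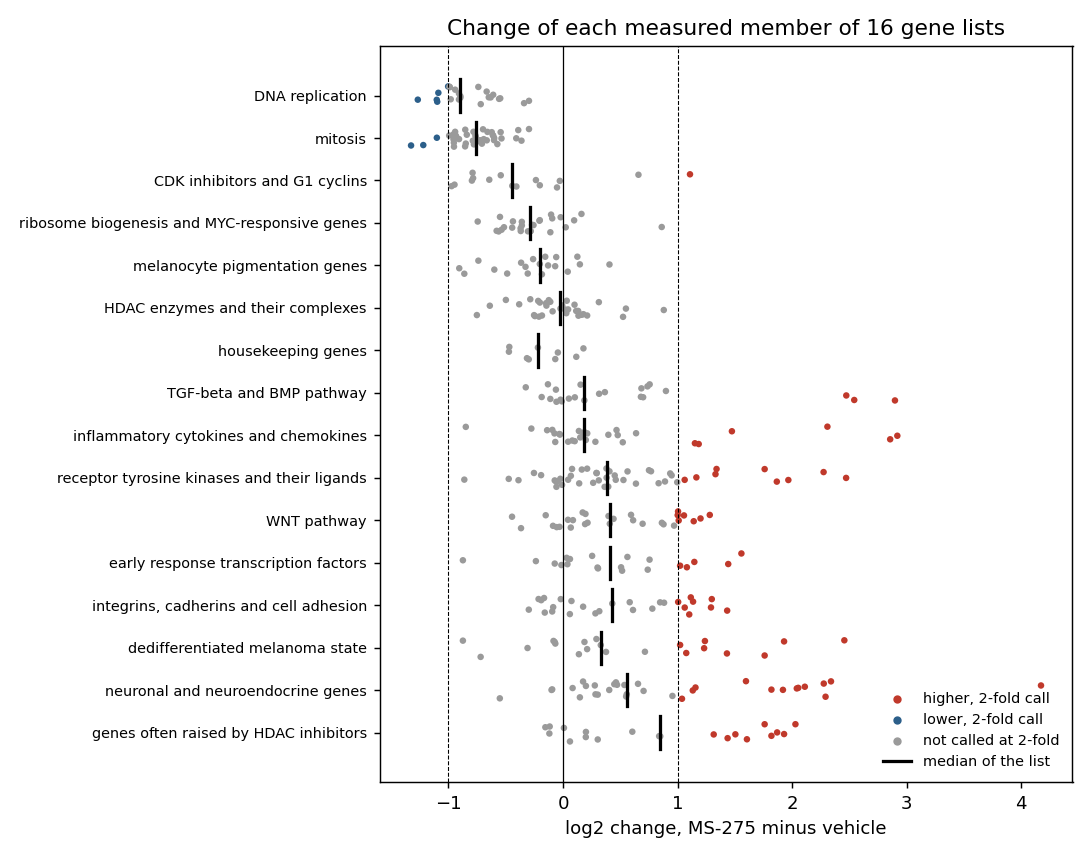
Log2 change with MS-275 against vehicle (horizontal axis) of each measured member of 16 gene lists, 1 row a list. Red points are members called higher at 2-fold, blue points members called lower and grey points the rest, with the list median as a black bar and dashed lines at 2-fold. The DNA replication and mitosis rows lie left of 0, with medians of -0.90 and -0.76, and the neuronal row spreads to 4.17 on the right.

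Many of the 58 lowered genes are known for roles in the cell cycle. Sorted by known function after their values were seen, 12 were of DNA replication and repair, 6 were regulators of the cycle and 16 were of mitosis, a sorting that was not tested or counted over all genes. This left 9 zinc finger and chromatin proteins, 7 membrane, secretory and surface proteins, 4 RNA genes and 4 others. The changes of the 58 lay between -1.61 and -1.002 with a median of -1.09, so that 1 gene alone, HCG11, fell by more than 3-fold. Quantile normalization kept 42 of the 58, and 37 were called lower in every one of the 6 fits that left out 1 array. With the arrays centred all 58 were called again, in a set of 130. Centring moved every change down by about 0.105 log2 units, so it could hardly remove a lowered gene. The arrays of the treatments did not overlap in any of the 58, nor in any of the 451 raised genes, while over all genes 6709 of 14884 did not overlap. The genes were called on these same arrays, so this largely follows from their choice and is no further evidence. In RNA from a whole culture, fewer cells in a phase of the cycle and less RNA per cell cannot be told apart.

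The replication genes acted at the loading and firing of origins and at the fork. GINS2 and GINS1 are subunits of the GINS complex, a part of the replicative helicase. GINS2 had log2 signals of 6.33, 6.33 and 6.45 with MS-275, against 7.62, 7.64 and 7.66 with vehicle (log2 change -1.27, SE 0.15, adjusted p = 7.55e-05). GINS1 had 6.66, 6.45 and 6.50 with MS-275, against 7.55, 7.47 and 7.85 with vehicle. MCM10, a factor of helicase activation, had 6.37, 6.28 and 6.46 with MS-275, against 7.52, 7.42 and 7.47 with vehicle. DTL, the adaptor of a ubiquitin ligase that clears licensing factors in S phase, had 7.73, 7.82 and 7.87 with MS-275, against 8.93, 8.96 and 8.82 with vehicle. In each of these genes the arrays of a treatment lay close together and clear of the other treatment. Without vehicle replicate 3 the change of GINS1 was -0.98, just short of 2-fold. MCM3 of the helicase ring (-1.003), TICRR, which fires origins (-1.02), WDHD1 of the fork (-1.01) and WDR76 (-1.11) fell as well. The repair genes were FAAP24 of the Fanconi pathway (-1.11), the helicase BRIP1 (-1.02), RAD51AP1 of recombination (-1.01) and UNG, the uracil glycosylase (-1.08).

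Among regulators, CCNA2 and CDC25A fell. CCNA2 encodes cyclin A, the partner of the kinases of S and G2 phase, and had 8.38, 8.42 and 8.49 with MS-275, against 9.51, 9.56 and 9.53 with vehicle (log2 -1.10, SE 0.09, adjusted p = 4.28e-06). CDC25A, a phosphatase that activates those kinases, had 6.22, 6.12 and 6.17 with MS-275, against 7.33, 7.37 and 7.39 with vehicle. The transcription factors E2F8 (-1.04) and MYBL2 (-1.06), both of the S phase and G2 programmes, fell too, as did TCF19 (-1.14) and CDCA7 (-1.02). Of the mitotic genes ESPL1 fell the most. It encodes separase, which cuts cohesin at anaphase, and had 6.07, 6.03 and 6.01 with MS-275, against 7.41, 7.30 and 7.39 with vehicle (log2 -1.33, adjusted p = 1.59e-06). NDC80, of the outer kinetochore, had 7.06, 6.68 and 6.72 with MS-275, against 8.001, 8.11 and 8.005 with vehicle, and SPAG5, a spindle protein, had 7.31, 7.33 and 7.27 with MS-275, against 8.51, 8.44 and 8.49 with vehicle. The kinesin KIF15 had 5.93, 5.63 and 5.70 with MS-275, against 7.05, 6.88 and 7.05 with vehicle. CDCA8 of the chromosomal passenger complex fell by 1.14 and PLK4, the kinase of centriole duplication, by 1.10. GTSE1, HJURP, CENPL, CENPQ, SGO1, SHCBP1, IQGAP3, RCC2, KIF24 and PCNT, which act at centromeres, spindle poles or in cytokinesis, had changes between -1.09 and -1.002.

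Most other measured genes of DNA replication and mitosis were lower by less than 2-fold. Of 23 measured genes of DNA replication 22 were lower at any fold and 0 higher, and 5 were lower at 2-fold. The median was -0.90, against -0.03 over all genes, and GINS4 was the 1 that did not pass (-0.30). Of 40 measured mitotic genes 39 were lower at any fold and 0 higher, with 3 lower at 2-fold and a median of -0.76, and NEK2 did not pass (-0.36). Both compare with 15.4% of all genes lower at any fold. The 2-fold threshold cut through the group: MCM3 and HJURP stood just inside it, at -1.003 and -1.002, as did ZNF100 at -1.01, and DONSON, RTP4 and CENPK stood just outside it, at -0.998, -0.99 and -0.99. TYMS, thymidylate synthase, MCM5 and CDT1, which loads the helicase, had changes of -0.99, -0.98 and -0.99. With the arrays centred, which moved every change down, 13 of the replication and 12 of the mitosis genes were lower at 2-fold. After quantile normalization 4 and 3 were. In the list of G1 cyclins, their kinases and inhibitors 9 of 15 were lower at any fold, among them CCNE2, cyclin E2 (-0.97), E2F2 (-0.95) and CDK4 (-0.80), while the D-type cyclins CCND2 (1.11) and CCND1 (0.66) were higher. The inhibitor gene CDKN1A was not analysed here.

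**Figure D4:**
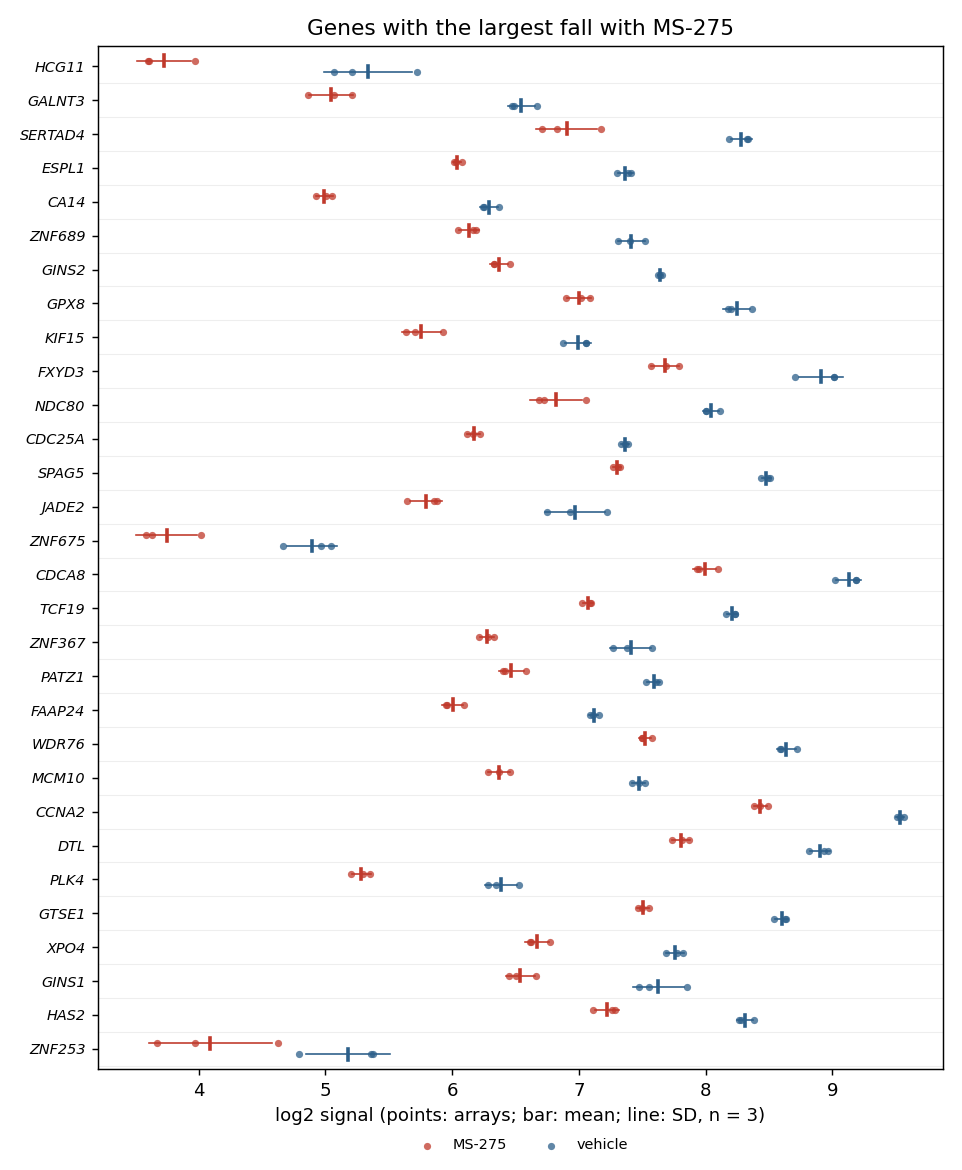
Log2 signals (horizontal axis) of the 30 named genes with the largest fall, 1 row a gene, with MS-275 in red above vehicle in blue. Points are single arrays, vertical bars the mean of 3 arrays and horizontal lines the SD. In every row the 3 MS-275 arrays lie to the left of the 3 vehicle arrays, which the choice of the genes fixes. The rows of HCG11, ZNF675 and ZNF253 are the most scattered.

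Outside the cycle, HCG11, a long noncoding RNA gene, had the largest fall of all. Its signals were 3.60, 3.97 and 3.60 with MS-275, against 5.07, 5.21 and 5.72 with vehicle (log2 -1.61, SE 0.18, adjusted p = 5.76e-05), and the MS-275 arrays lay under the median probe. GALNT3, an enzyme that starts mucin-type glycosylation, had 4.86, 5.07 and 5.21 with MS-275, against 6.47, 6.49 and 6.67 with vehicle (log2 -1.498, SE 0.11). CA14, a membrane carbonic anhydrase, had 5.003, 4.92 and 5.05 with MS-275, against 6.25, 6.25 and 6.37 with vehicle. FXYD3, a regulator of the sodium pump, had 7.69, 7.57 and 7.79 with MS-275, against 9.01, 8.71 and 9.01 with vehicle, and GPX8, a peroxidase of the endoplasmic reticulum, had 7.09, 6.90 and 7.01 with MS-275, against 8.37, 8.20 and 8.17 with vehicle. In these genes the 3 arrays of a treatment stayed close together. HAS2, the synthase of hyaluronan, had 7.28, 7.26 and 7.11 with MS-275, against 8.26, 8.38 and 8.28 with vehicle and was the 1 of 18 measured matrix genes that was lower at 2-fold, while EFEMP1, FBN2 and VCAN of the same list were higher by 1.96, 1.45 and 1.35. RHOJ, a small GTPase, fell by 1.04 and OMG, a myelin glycoprotein, by 1.07.

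SERTAD4 had 7.17, 6.71 and 6.83 with MS-275, against 8.33, 8.18 and 8.33 with vehicle, a fall of 1.38 with an SE of 0.13. The zinc finger genes ZNF689, ZNF675, ZNF367, ZNF253, ZNF93 and ZNF100 fell by between 1.01 and 1.28, and PATZ1, another zinc finger factor, by 1.12. JADE2, of a histone acetyltransferase complex, fell by 1.17 and KDM4D, a histone demethylase, by 1.03. Among all 491 genes with a ZNF symbol 4 were higher and 6 lower at 2-fold, and 7.74% were higher and 18.7% lower at any fold. Over all genes the shares at any fold were 14.2% and 15.4%, and 3.03% and 0.39% at 2-fold. Zinc finger genes of one cluster share sequence, so a probe may read more than 1 of them. XPO4, a nuclear export receptor, IFT81 of cilia and LMNB1, lamin B1 of the nuclear envelope, fell by 1.09, 1.06 and 1.02. The last 3 of the lowered genes were 1 unnamed transcript, the microRNA locus MIR891A and the antisense RNA TMPO-AS1, with changes between -1.31 and -1.03. TMPO, which lies opposite TMPO-AS1, had -0.97.

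Windows of 250 bases before the start of transcription were read for 50 of the 58 lowered genes, 342 of the 451 raised genes and 10749 of all tested genes, on both strands. A CCAAT box (CCAAT) stood in 60% of lowered, 32.7% of raised and 34.3% of all genes. A CRE (TGACGTCA) stood in 10% of the lowered genes, which were CCNA2, DTL, KIF15, MCM10 and NDC80, in 2.05% of the raised and in 2.32% of all genes. After the lowered genes were seen, 2 motifs of cell cycle promoters were added. An E2F site (TTTGGCGC, TTTCGCGC, TTTCCCGC or TTTGCCGC) stood in 16% of lowered, 1.75% of raised and 3.81% of all genes. The lowered genes with it were CDC25A, CDCA7, DTL, GINS2, KIF15, MCM3, SERTAD4 and ZNF367. The cell cycle homology region (CHR, TTTGAA) stood in 20%, 5.56% and 10.5%, in the same order. A GC box (GGGCGG) stood in 68%, 67.8% and 57.6%, and the median GC content was 61%, 66.8% and 62.8%. The E-box CACGTG, the TATA box TATAAA, the AP-1 site TGACTCA and the M-box TCATGTG stood in 6%, 4%, 2% and 2% of the lowered genes, against 7.88%, 8.29%, 3.27% and 1.75% of all genes. None of these shares was tested, and replication and mitosis genes make up much of the lowered set.

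The windows of 4 lowered genes are printed because they hold these elements close to the start. They are from RefSeq, GRCh38.p14, 5′ to 3′ up to the start, and capitals mark CCAAT boxes (CCAAT or ATTGG), CREs, E2F sites and CHRs. CCNA2 is at chr4:121823884-121824133 on the minus strand, MCM10 at chr10:13161308-13161557, DTL at chr1:212035498-212035747 and ESPL1 at chr12:53268049-53268298, the last 3 on the plus strand.
CCNA2: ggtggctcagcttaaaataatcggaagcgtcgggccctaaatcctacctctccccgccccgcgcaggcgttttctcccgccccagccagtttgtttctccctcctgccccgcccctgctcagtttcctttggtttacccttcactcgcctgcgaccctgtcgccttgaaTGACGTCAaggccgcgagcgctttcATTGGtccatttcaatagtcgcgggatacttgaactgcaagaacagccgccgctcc
MCM10: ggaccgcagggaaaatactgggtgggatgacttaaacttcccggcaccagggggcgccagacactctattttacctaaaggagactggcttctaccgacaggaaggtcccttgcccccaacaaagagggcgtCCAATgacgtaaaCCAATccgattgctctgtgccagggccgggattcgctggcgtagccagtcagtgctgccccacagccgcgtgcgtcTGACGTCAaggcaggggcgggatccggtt
DTL: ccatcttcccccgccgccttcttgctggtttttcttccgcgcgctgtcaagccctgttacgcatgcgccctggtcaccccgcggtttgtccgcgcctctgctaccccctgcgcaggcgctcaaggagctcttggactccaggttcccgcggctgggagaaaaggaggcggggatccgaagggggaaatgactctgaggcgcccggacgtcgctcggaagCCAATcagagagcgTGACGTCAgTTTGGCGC
ESPL1: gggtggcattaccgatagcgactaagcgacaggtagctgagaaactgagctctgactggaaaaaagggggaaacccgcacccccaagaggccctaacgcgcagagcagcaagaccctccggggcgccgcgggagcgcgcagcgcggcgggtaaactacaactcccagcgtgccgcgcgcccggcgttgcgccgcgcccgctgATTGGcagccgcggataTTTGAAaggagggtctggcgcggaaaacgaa
In CCNA2 the CRE covers bases -81 to -74 and the CCAAT box bases -56 to -52, counted back from the start. In DTL a CCAAT box (-31 to -27), a CRE (-17 to -10) and an E2F site (-8 to -1) follow each other with no overlap, and in ESPL1 the CCAAT box (-48 to -44) stands before a CHR (-31 to -26).

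Corin lowered nearly all of the genes that MS-275 lowered, and lowered them further. The comparison of corin with MS-275 shares the MS-275 arrays with the comparison above, so the values stand side by side. Over all genes 358 stood higher with corin at 2-fold than with MS-275 (2.41%) and 542 lower (3.64%), and at any fold 2592 were higher (17.4%) and 3090 lower (20.8%). Of the 58 lowered genes, 56 stood below their MS-275 level with corin at any fold, 47 of them at 2-fold, with a median difference of -1.75. CCNA2 had log2 signals of 5.03, 4.78 and 4.80 with corin, against 8.38, 8.42 and 8.49 with MS-275, a difference of -3.56 (SE 0.09, adjusted p = 6.01e-10), beside a change of -1.10 with MS-275 alone. MYBL2 differed by -3.002, SPAG5 by -3.003 and HAS2 by -3.60. By group, 12 of 12 replication and repair genes, 6 of 6 regulators and 14 of 16 mitotic genes were lower with corin at 2-fold. So were 6 of 7 membrane, secretory and surface genes, the group with the lowest median difference (-2.38). The counts were 5 of 9 for zinc finger and chromatin genes, 2 of 4 for RNA genes and 2 of 4 for the others. The 2 genes that did not pass were HCG11, at -0.17 (95% interval -0.58 to 0.23), and ZNF253, at 0.10 (-0.38 to 0.58). Their mean signals with MS-275, 3.72 and 4.09, were already under or near the median probe (4.07), where a further fall may not show. ZNF675, at 3.75 with MS-275, still stood lower with corin, by 0.87. Whether the dim signal hid a fall was not tested.

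**Figure D5:**
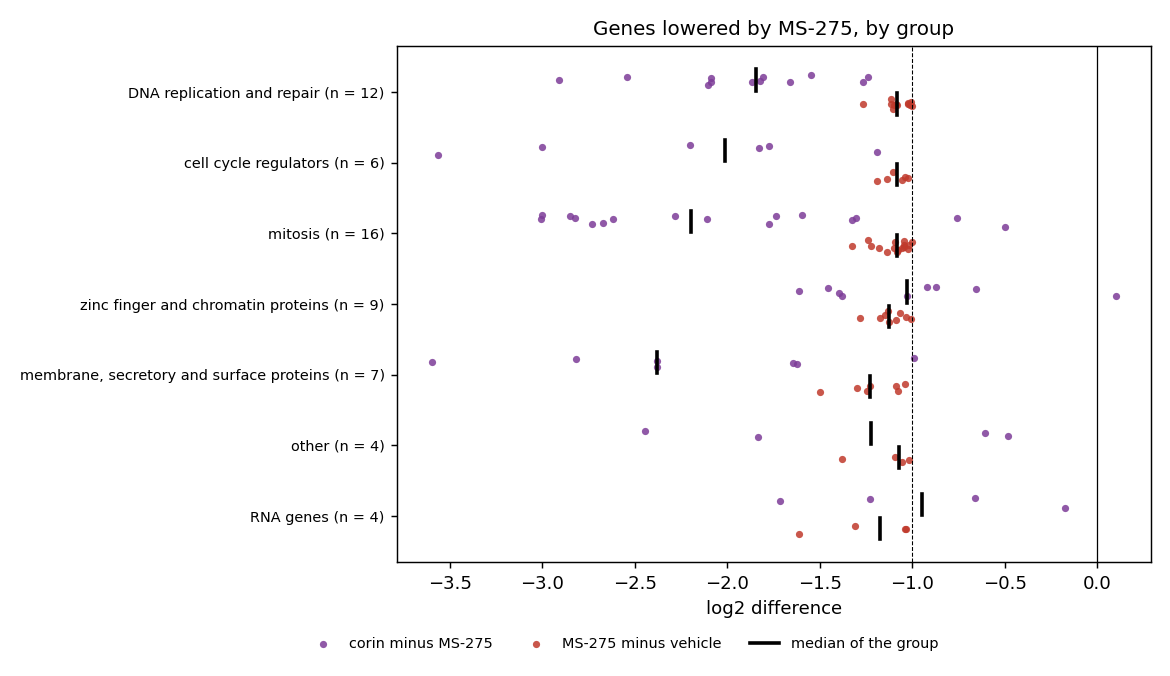
Log2 differences (horizontal axis) of the 58 lowered genes in 7 groups, with corin minus MS-275 in purple above MS-275 minus vehicle in red. Each point is 1 gene and each black bar a group median. The red points crowd between -1.61 and -1.002, which the choice of the genes fixes, while the purple points reach from 0.10 to -3.60.

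The raised genes differed less between the compounds. Of the 451, 225 stood higher with corin than with MS-275 with no limit on the fold and 59 lower, 76 and 6 at 2-fold, and 167 did not pass, with a median difference of 0.28. ANKRD1 was higher with corin by 3.05 and MT1G, a metallothionein that MS-275 raised by 1.62, by 4.11, whereas MAPT differed by 0.09 (95% interval -0.11 to 0.29). The 6 genes that MS-275 raised and that stood lower with corin at 2-fold were VCAN, OLFM2, DKK1, CD96, FGF7 and PDGFRL. VCAN, the matrix proteoglycan versican, had 5.27, 5.53 and 5.24 with corin, against 7.08, 7.13 and 7.13 with MS-275, with vehicle at 5.70, 5.76 and 5.84. CD96, a receptor of lymphocytes, had 4.52, 4.70 and 4.56 with corin, against 6.01, 5.99 and 5.99 with MS-275, and vehicle stood at 4.71, 4.63 and 4.42. In CD96 the corin arrays were thus close to vehicle and the MS-275 arrays alone were high. OLFM2 (-1.36), DKK1 (-1.37), FGF7 (-1.63) and PDGFRL (-1.02) differed the same way. The 5 other than VCAN were named after their values were seen.

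Of 33 measured genes of the HDAC enzymes and the complexes around them 0 passed at 2-fold. At any fold 3 were higher and 6 lower (14 lower after centring), where 14.2% and 15.4% of all genes were, and the median was -0.02, with a sign that turns under quantile normalization (0.04). HDAC1 had signals of 8.62 ± 0.07 with MS-275 and 8.59 ± 0.06 with vehicle (SD, n = 3 each), KDM1A, which encodes LSD1, 9.36 ± 0.06 with MS-275 and 9.23 ± 0.03 with vehicle, and RCOR1, the CoREST scaffold, 7.82 ± 0.12 with MS-275 and 7.66 ± 0.08 with vehicle, and none of the 3 passed the test. HDAC3, the enzyme of the NCoR complex, was higher by 0.55, and RCOR2, a relative of RCOR1, by 0.88. CHD3, a remodeller of NuRD, was lower by 0.75, RBBP4, a histone chaperone shared by several complexes, by 0.64, and SIN3A by 0.22 (adjusted p = 0.0455).

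Of 19 measured pigment cell genes 0 passed at 2-fold, and 1 was higher and 9 lower at any fold, where 14.2% and 15.4% of all genes were, with a median of -0.20. After centring 11 were lower at any fold, 1 of them at 2-fold, and 0 higher. MLANA, a melanosome protein, had 7.86, 7.86 and 7.66 with MS-275, against 8.74, 8.66 and 8.70 with vehicle, the largest fall of the list (log2 -0.91, adjusted p = 0.000109). OCA2, a melanosome transporter, had 7.73 ± 0.14 with MS-275 and 8.47 ± 0.05 with vehicle and SOX10, the lineage factor, 9.60 ± 0.03 with MS-275 and 10.09 ± 0.06 with vehicle. MITF, the master regulator of the lineage, had 7.85, 8.04 and 7.82 with MS-275, against 8.21, 8.17 and 7.89 with vehicle, a change of -0.18 that did not pass the test (adjusted p = 0.227). TYR, tyrosinase, had 8.59, 7.64 and 7.93 with MS-275, against 8.22, 8.25 and 8.16 with vehicle, so that MS-275 arrays stood on both sides of the vehicle arrays. Corin arrays lay lower, with MLANA at 5.36, 5.77 and 5.71 and SOX10 at 7.05, 6.76 and 6.72. Among 21 measured genes of the dedifferentiated melanoma state 8 were higher and 0 lower at 2-fold, against 3.03% and 0.39% of all genes. At any fold 12 were higher and 3 lower, and after centring 6 were higher at 2-fold. SLIT2, an axon guidance ligand, was at 6.47 ± 0.03 with MS-275 and 4.02 ± 0.04 with vehicle. NGFR, a neurotrophin receptor of neural crest cells, was at 9.24 ± 0.08 with MS-275 and 7.81 ± 0.15 with vehicle. AXL, a receptor kinase of this state, changed by -0.07 (adjusted p = 0.68).

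DDIT3, the gene of the stress factor CHOP, had 5.25, 5.21 and 5.07 with MS-275, against 4.62, 5.03 and 4.70 with vehicle, and the change did not pass the test (log2 0.39, adjusted p = 0.0746). SIK1, a salt-inducible kinase, was higher by 0.59 and MXD1, an antagonist of MYC, was lower by 0.41, with 5.22, 5.31 and 5.49 with MS-275, against 5.72, 5.67 and 5.86 with vehicle. Of 18 measured genes of the unfolded protein and integrated stress responses 4 were higher and 3 lower at any fold, where 14.2% and 15.4% of all genes were, and 0 passed at 2-fold. After centring 4 were higher and 7 lower. Of 33 cytosolic ribosomal protein genes 5 were lower and 0 higher at any fold, which became 19 lower after centring and 2 after quantile normalization. Of 27 genes of ribosome biogenesis and MYC response 15 were lower and 1 higher, and 9 lower and 2 higher after quantile normalization. Of 15 measured heat shock genes 3 were higher and 4 lower at any fold, with a median of -0.16, and 3 higher and 8 lower after centring. At 2-fold 1 was higher and 0 lower, against 3.03% and 0.39% of all genes. The raised gene was HSPA2, a chaperone of the testis, at 9.69 ± 0.01 with MS-275 and 8.08 ± 0.09 with vehicle.

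Some genes had a further probe on the same arrays. Of 28 raised genes with one, 25 showed the same sign there, 10 were called again and 3 had the opposite sign, of which 0 passed the test. EGR1 changed by 1.29 and CCN2 by 1.02 at the further probe, and both were called. FOS changed by 0.36, DUSP5, a phosphatase of MAP kinases, by 0.16, CCND2 by 0.02 and VCAN by 0.01, and none of these 4 was called there. The further probes of DUSP5, CCND2 and VCAN had signals at or under 4.09 with both treatments, near or below the median probe. Brighter further probes went uncalled too. That of FOS was at 5.36 with MS-275 and 5.00 with vehicle, that of UCA1 at 4.93 and 4.84, and that of SYP at 4.86 and 4.79. With all probes of a gene averaged, VCAN changed by 0.68, FOS by 0.90 and CCND2 by 0.57. TCF19, the 1 lowered gene with a further probe, IER3 and SNAR-C1 gave the same value at both, so that these do not count as separate readings. IER3 and SNAR-C1 are among the 10 raised genes called again. SNAR-B1, with 3 probes, and MICB, with 7, are also among them and gave similar values at both probes (1.47 and 1.40, 1.09 and 1.05).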

How the data were processed

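RNA of WM983B cells was hybridized by the authors to Affymetrix Human Gene ST arrays. They extracted probe intensities by RMA and normalized them in Partek Genomics Suite, and the deposited values are log2 signals of 53617 probes on each of 9 arrays. The submitters' processing notes also name hg19. No further normalization and no filter on dim probes was applied. A probe table gave 16098 probes a symbol, standing for 14884 genes, and for the 779 genes with several probes the one with the highest mean signal was used. All 9 arrays entered 1 fit by treatment with lmFit and eBayes of limma 3.58.1 in R 4.3.3, from which the contrasts MS-275 minus vehicle and corin minus MS-275 were taken. Calls needed a fold of at least 2, as in the series' design text, together with a p under 0.05 after Benjamini-Hochberg adjustment over all 14884 genes. Intervals are at 95%. The number of arrays limits the precision.

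The comparison and the 39 gene lists were chosen with earlier results of these data known, so the counts of list members are descriptions and no list was tested. The genes named are the 15 largest rises and 30 largest falls whose arrays did not overlap, those next to the 2-fold threshold on the lower side, up to 4 members of each list by size of change, and genes the paper names for these arrays. Unnamed transcripts, antisense and small RNAs were left out of the largest changes, and not all genes that meet the rule are reported. All other genes named, and the groups of lowered genes, were chosen after their values were seen. Histone genes were not analysed here, nor were 68 of 70 ion channel genes.

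Promoter windows of 250 bases and gene symbols came from RefSeq tables of GRCh38.p14, and the window that starts farthest upstream was used for each gene. The test was checked on simulated arrays. The alternatives tried were a fit to 6 arrays, a block for the replicate number, the one-way model of the methods, trend and robust settings, brighter genes only, averaging a gene's probes, centring and quantile normalization, a fold of 2 SD, an unadjusted p and each array left out in turn. Counts over all probes and the E2F and CHR motifs were added once the data had been seen. Python 3.11.15 with matplotlib 3.10.9 drew the plots.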

Additional observations from a re-analysis of the deposited data

Results flagged for a closer look

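Most probes of the arrays carried no gene symbol here and entered no comparison above. Among these 37519 probes, 393 were higher with MS-275 than with vehicle and 96 were lower, at 2-fold and an adjusted p under 0.05 from limma fitted to all 53617 probes. This is 1.05% higher and 0.256% lower, against 2.96% and 0.404% of the 16098 probes with a symbol. They are listed because they are a difference from the vehicle arrays in data that the report does not use. Which transcripts these probes read was not analysed here.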

How the results depend on the processing

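The counts at 2-fold kept within 1.5 times of 451 higher and 58 lower under most settings, with 37 lowered and 384 raised genes called in all 6 fits that left out 1 array. The exceptions were the scale and the threshold. The replicate block, the fit to 6 arrays, the one-way model, the trend and robust settings and the unadjusted p leave every fold as it was. All of these gave 451 and 58, counts that could move only through the p-value, so they say little about stability. Centring each array on its median gene gave 130 lower genes at 2-fold and 3826 at any fold, against 58 and 2293 as deposited, and kept all 58 and 359 of the 451 raised genes. It moved every change down, so that it could hardly remove any of the 58. A fold of 2 SD, which is 1.81, gave 153 lower and 600 higher genes. Quantile normalization kept 42 of the lowered genes. Leaving out 1 array in turn gave 448 to 464 higher and 57 to 68 lower genes at 2-fold, and 1831 to 1865 higher and 1785 to 1846 lower genes at any fold.

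The labels number the replicates of each treatment, but arrays with the same number did not deviate together, with correlations of -0.007, 0.008 and -0.013 across genes, so the numbers were not taken as a pairing. With the replicate number as a block the counts were 451 and 58 at 2-fold and 2021 higher and 2083 lower at any fold. The block leaves every fold unchanged, so the 2-fold counts could hardly move.

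Not all genes named in this report were followed through the settings. Over those that were, 2989 values kept their side of the threshold, 68 lost the 2-fold call and 33 gained it. Of all 58 lowered genes 37 kept the call in every fit that left out 1 array. The lowered genes listed next are only part of those that lost this call. Lowered genes near the threshold lost it without MS-275 replicate 1 (ZNF100 -0.93, HJURP -0.96, PCNT -0.99), without MS-275 replicate 2 (MCM3 -0.95, CDCA7 -0.93, RAD51AP1 -0.94, TICRR -0.97, KDM4D -0.98, LMNB1 -0.98), without MS-275 replicate 3 (ZNF253 -0.88, KDM4D -0.93, HJURP -0.96), without vehicle replicate 1 (ZNF253 -0.99, RHOJ -0.99, WDHD1 -0.99, LMNB1 -0.99, CDCA7 -0.99, RAD51AP1 -0.94), without vehicle replicate 2 (CENPQ -0.98, MCM3 -0.99, HJURP -0.997, LMNB1 -0.9997) and without vehicle replicate 3 (GINS1 -0.98, ZNF100 -0.94, PCNT -0.93, ZNF253 -0.99, MCM3 -0.99, HJURP -0.98). Raised genes did so too: DKK1 at 0.95 without MS-275 replicate 1 and 0.96 without vehicle replicate 1, CD274 at 0.94 without MS-275 replicate 3 and 0.92 without vehicle replicate 2, ULBP3 at 0.96 and IER3 at 0.99 without vehicle replicate 2, SLPI at 0.93 without MS-275 replicate 1 and 0.94 without vehicle replicate 2, EPCAM at 0.96 without MS-275 replicate 2 and 0.98 without vehicle replicate 2, and STARD4 at 0.98 without vehicle replicate 1. The sign turned in 5 genes, none of them called at 2-fold. After centring HDAC1 was at -0.0763 and SYCP3 at -0.0152, and after quantile normalization PMEL was at 0.0625. With 1 array left out, HDAC1 ranged from -0.0081 to 0.0626, SYCP3 from -0.0164 to 0.193, MAEL from -0.171 to 0.0072 and TYR from -0.425 to 0.0531. Apart from what the settings themselves change, the cause of these shifts was not tested.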

Other observations

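The lists not described so far gave between 0 and 4 members higher with MS-275 at 2-fold, where 3.03% of all genes were higher. Of 11 measured metallothioneins, which bind metal ions, 2 were higher at 2-fold and 0 lower. MT1X had log2 signals of 10.70 ± 0.04 with MS-275 and 8.94 ± 0.05 with vehicle (SD, n = 3 each), a change of 1.76. Of 28 measured proteases and their inhibitors 4 were higher at 2-fold and 0 lower. TFPI2, an inhibitor of serine proteases, had 9.10, 9.18 and 9.17 with MS-275, against 6.24, 6.47 and 6.53 with vehicle, so that the groups lay far apart. CPA4, a carboxypeptidase, changed by 1.505. Interferon-stimulated genes went both ways, with 3 of 30 higher at 2-fold, LAMP3 (1.60), OASL (1.49) and IFIT1 (1.18), and with SAMD9L lower by 0.73, short of that threshold (adjusted p = 0.00591 from limma).

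Over all genes 14.2% were higher and 15.4% lower at any fold. Of 27 measured genes of cholesterol and fatty acid synthesis 9 were higher and 2 lower at any fold, with STARD4, a sterol carrier, at 1.05 and DHCR7, an enzyme of cholesterol synthesis, at 0.83. After centring 6 were higher and 4 lower. Of 28 measured Notch pathway genes 1 was higher at 2-fold, a share near the 3.03% of all genes. It was the ligand JAG1, with 9.99, 10.01 and 9.89 with MS-275, against 8.32, 8.18 and 8.37 with vehicle. Among the BCL2 family and death receptors 4 of 18 were higher and 7 lower at any fold, and 3 higher and 10 lower after centring. They included the proapoptotic PMAIP1 at 0.92 and BCL2L11 at 0.52, and the antiapoptotic BCL2 at -0.49. Of 10 measured cancer-testis genes 1 was higher at any fold, TEX14 (0.45), and 9 of the 10 lay under the median probe with vehicle.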
